A study of Homo sapiens with 6 samples.

Results

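The transcripts described here are 9 genes that work in other cell systems has described as targets of the RNA demethylase FTO: JUNB, CEBPB, CEBPA, MYC, RARA, MZF1, RUNX1T1, USP7 and ASB2. They were chosen by name, with earlier results of these data known, and all 9 were found among the 58174 genes of the expression table. Total RNA of AGS cells, a human gastric adenocarcinoma line, was sequenced in 3 libraries titled si-NC and 3 titled si-FTO, and the question was how the level of each transcript differs when FTO is depleted. The titles name a control siRNA and an siRNA against FTO, whereas the genotype labels of the same libraries read wild type (si-NC) and FTO-/- (si-FTO); the groups are named here by their titles. The values are TPM, which counts a gene's RNA as a part of the whole and already allows for transcript length, and 1 authors' mean stands for each group. There is therefore no spread between libraries to read, and no test was run. The p-values that the authors deposited were not used. The depth behind each value is unknown. A difference is given as the log2 ratio of si-FTO over si-NC after 1 TPM was added to both. A gene was compared when it had at least 0.5 TPM in at least 1 group, and it is called higher or lower when that log2 ratio reached 1 or −1.

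N6-methyladenosine (m6A) is a methyl mark that a nuclear writer complex places on adenosines of messenger RNA, most often within a short sequence of which GGACT is a frequent form, and mostly in long internal exons, around the stop codon and in the 3′ UTR. FTO and ALKBH5 are the enzymes known to remove the mark, and reader proteins that bind it can speed the decay of a transcript or stabilise it. In leukaemia, lung, adipocyte and other cells FTO has been described to act through single target transcripts, among them several that encode transcription factors, with some targets falling and others rising when FTO is lost.

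The targeted gene was read first. FTO stood at 33.1 TPM in si-NC against 7.27 TPM in si-FTO, or a log2 ratio of −2.05, so the group labelled as depleted had less FTO RNA. The second eraser, ALKBH5, stood at 128 TPM in si-NC against 67.5 TPM in si-FTO, which is a log2 ratio of −0.91 and not past the fold.

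Markers of cell identity also differed between the groups. Of 8 epithelial markers, 7 were compared, 5 were higher and 1 was lower. That is 71.4% and 14.3%, beside 11.4% and 17.0% of all genes compared. The summed level of the 8 was 68.1 TPM in si-NC against 5340 TPM in si-FTO. The most abundant were KRT18 in si-NC, at 52.1 TPM, and KRT8 in si-FTO, at 3139 TPM. KRT7 was listed at 0 in si-NC and stood at 253 TPM in si-FTO, and ELF3 stood at 0.115 TPM and 93.3 TPM. By contrast, CDH1 stood at 3.67 TPM and 0.685 TPM, EPCAM at 1.22 TPM and 0.113 TPM, and KRT19 was listed at 0 and at 0.130 TPM. The list thus held genes that were far higher in si-FTO and genes that were low in both groups of a line labelled as stomach. Of 6 neuronal markers, 4 were compared, 1 was higher and 2 were lower. That is 25% and 50%, beside the same shares of all genes. The summed level of the 6 was 328 TPM in si-NC against 16.2 TPM in si-FTO. Nearly all of the former was UCHL1, at 303 TPM and 0.0204 TPM, while STMN2 was listed at 0 in both. SNAP25, at 0.316 TPM and 9.72 TPM, was the most abundant neuronal marker in si-FTO. These group means do not show whether both groups hold the same cells, so each ratio below compares the libraries as they are labelled, and the part of the marker differences in the members' levels was not tested.

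Of the 9 members, 8 had enough RNA to be compared. JUNB, CEBPB and MYC were higher in si-FTO, which is 3 of 8, beside 11.4% of all 20493 genes compared. RUNX1T1 was lower, which is 1 of 8, beside 17.0% of all genes. The other 4, MZF1, CEBPA, RARA and USP7, were not past the fold. ASB2 was near 0 in both groups. In bulk RNA, a different mix of cells and a different level per cell cannot be told apart. The median log2 ratio of the 8 members was 0.40, against −0.20 over all genes compared, and 6 of the 8 lay above that median. Median-ratio scaling, which sets the median ratio of genes above 0 in both groups to 0, removed a shift of −0.21 and left a median of −0.03 over all genes compared. The ratio of each member after it is given below as the scaled ratio.

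The order of the members by level changed with the group. In si-NC, USP7 was the most abundant at 91.3 TPM, and JUNB, MZF1, RARA, CEBPA, CEBPB and MYC followed within a narrow range, from 27.8 TPM down to 20.7 TPM. RUNX1T1 came next at 2.997 TPM and ASB2 last at 0.117 TPM. In si-FTO the order was JUNB, CEBPB, USP7, MYC, MZF1, CEBPA and RARA, with RUNX1T1 and ASB2 listed at 0. The 6 transcription factors that were close together in si-NC thus spanned 28.6 TPM for RARA to 337 TPM for JUNB in si-FTO. With no values of single libraries, it cannot be said which neighbours in either order differ beyond their spread. The members' summed level was 237 TPM in si-NC against 673 TPM in si-FTO, which was 2.83-fold higher, and most of that gain was JUNB.

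**Figure D1:**
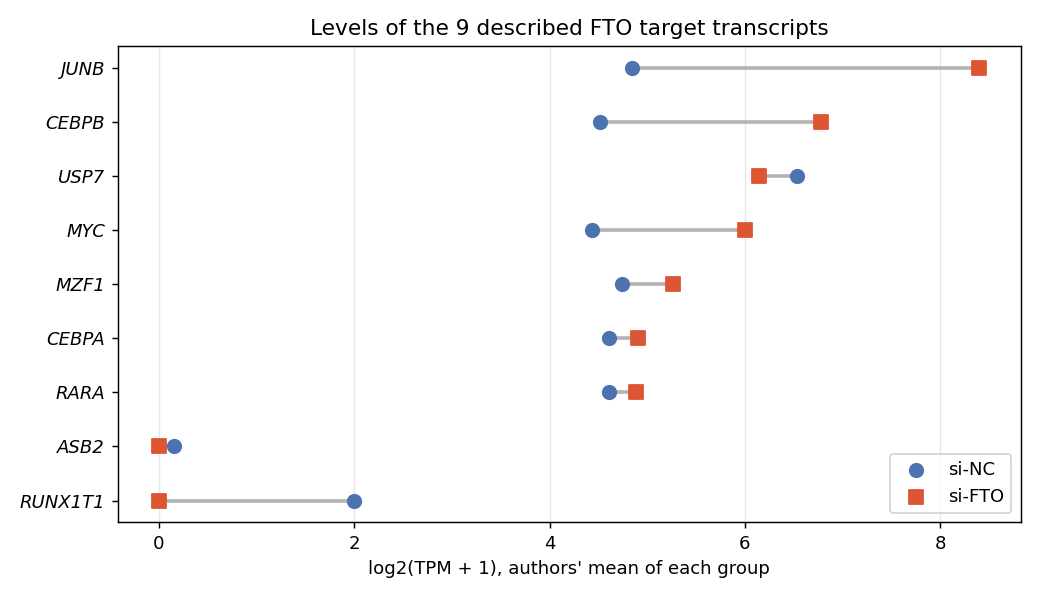
Level of each of the 9 members as log2(TPM + 1), the authors' mean of si-NC (circles) and si-FTO (squares), ordered by the si-FTO level. JUNB, CEBPB and MYC lie furthest to the right of their si-NC value, MZF1, CEBPA, RARA and USP7 stay close to it, and RUNX1T1 and ASB2 are listed at 0 in si-FTO.

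The first group of members binds DNA through a basic leucine zipper. JUNB is a subunit of the AP-1 transcription factor, in which a JUN protein pairs with a FOS or ATF protein. Its transcript stood at 27.8 TPM in si-NC against 337 TPM in si-FTO, 12.1-fold higher, with a log2 ratio of 3.55 and a scaled ratio of 3.76. Of all genes compared, 1.68% had a higher ratio. In si-NC 27.0% of the genes compared were more abundant than JUNB, and in si-FTO 1.86% were, so that JUNB moved from an ordinary level to that of the most abundant transcripts.

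CEBPB, a C/EBP factor of acute-phase, fat cell and stress responses, had the second largest ratio of the members that were higher. Its level was 21.9 TPM in si-NC against 108 TPM in si-FTO, 4.96-fold higher, with a log2 ratio of 2.26 and a scaled ratio of 2.46, and 3.94% of all genes had a higher ratio. CEBPA, a related factor of myeloid, liver and fat cell differentiation, stood at 23.4 TPM and 28.9 TPM, a log2 ratio of 0.29 and a scaled ratio of 0.50. The related pair thus began at similar levels in si-NC, and CEBPB but not CEBPA was past the fold.

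JUNB, CEBPB and CEBPA also share a gene structure and a promoter element that the choice of members did not use. Each is a single-exon gene, as are 2.52% of the 14065 protein-coding genes compared. Each has the letters TATAAA in the window of 250 bases before to 50 bases after a start site that RefSeq gives, as have 11.5% of all 35116 such windows on either strand. The part of each promoter from 60 bases before the start to the 20th base of the transcript is shown, since the element sits at nearly the same place in all 3: it begins 31 bases before the start in JUNB, 30 in CEBPA and 29 in CEBPB. The sequences run 5′ to 3′ on the strand of the gene, capitals mark TATAAA, and the positions are those of the same sequence in the GRCh37 genome. They are chr19:12902240-12902319 on the plus strand for JUNB, chr19:33793421-33793500 on the minus strand for CEBPA and chr20:48807307-48807386 on the plus strand for CEBPB.
JUNB: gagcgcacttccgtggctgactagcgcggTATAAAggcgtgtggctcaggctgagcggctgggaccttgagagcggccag
CEBPA: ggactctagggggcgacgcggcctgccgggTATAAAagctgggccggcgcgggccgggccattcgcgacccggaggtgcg
CEBPB: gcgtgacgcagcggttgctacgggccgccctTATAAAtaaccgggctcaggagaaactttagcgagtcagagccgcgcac

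Promoters from RefSeq (GRCh38.p14) were matched for 7 members, and 4 other sequences were searched on both strands. CCAAT, held by 34.6% of all windows, was found for JUNB, CEBPB, RARA, MZF1 and USP7. CACGTG, the core of the E-box that MYC binds with its partner MAX, is held by 7.26% of all windows and was found for RARA and ASB2. TGACTCA, a site of JUN and FOS pairs, is held by 4.95% of all windows, and TGACGTCA, a cyclic AMP response element, by 1.85%; neither was found in the windows of the 7 members. These are matches of letters and no measure of binding.

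The relatives of JUNB moved in both directions. Of 13 other AP-1 subunits, 12 were compared, 7 were higher and 2 were lower, which is 58.3% and 16.7% beside 11.4% and 17.0% of all genes, with a median log2 ratio of 1.21. FOS, the classic partner of JUN proteins, had the largest rise in the list, from 25.0 TPM to 888 TPM, a log2 ratio of 5.09. JUN, the founding member of JUNB's own family and itself described as an FTO target, went the other way, from 190 TPM to 7.55 TPM, a log2 ratio of −4.49. JUND, named after its values were seen, stood at 68.0 TPM and 162 TPM. Among the 3 JUN genes, JUN thus held 66.6% of the summed TPM in si-NC and 1.49% in si-FTO, while JUNB held 9.71% and 66.6%. The family's sum differed less than its make-up, at 286 TPM in si-NC against 506 TPM in si-FTO.

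Many AP-1 genes belong to the immediate early genes, which cells switch on within minutes of a stimulus and whose RNAs are short-lived. Of 18 such genes, 18 were compared, 9 were higher and 2 were lower, which is 50% and 11.1% beside 11.4% and 17.0% of all genes, and the median log2 ratio was 0.99. After median-ratio scaling 9 were higher and 1 was lower. FOS and JUN were again the extremes of the list.

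In the C/EBP family the difference was also uneven. Of 5 genes listed beside the 2 members, 4 were compared, 1 was higher and 0 were lower, with a median log2 ratio of 0.34. That is 25% and 0%, beside 11.4% and 17.0% of all genes. The higher one was CEBPD, a C/EBP factor of inflammatory responses, at 4.01 TPM in si-NC against 30.5 TPM in si-FTO, or a log2 ratio of 2.65. CEBPZ has the family's symbol but is not counted in the family share below. It was the most abundant gene of this list in both groups, at 32.5 TPM and 34.96 TPM, and the counts and median above include it. CEBPE, a factor of granulocytes, was listed at 0 in both. Of the summed TPM of CEBPA, CEBPB, CEBPD, CEBPE and CEBPG, CEBPB held 28.5% in si-NC against 59.2% in si-FTO, and CEBPA 30.5% and 15.8%. CEBPG held 35.7% and 8.39%, and CEBPD 5.23% and 16.6%.

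**Figure D2:**
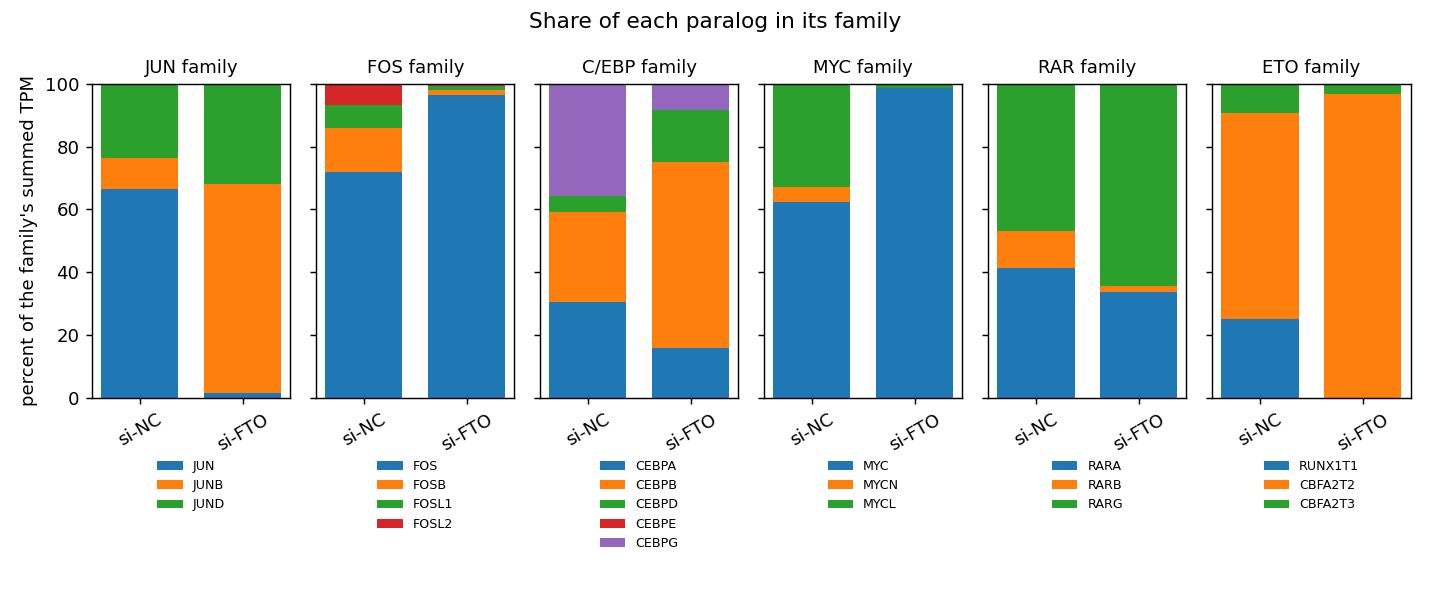
Percent of each family's summed TPM held by each gene, with si-NC on the left and si-FTO on the right of each panel. JUNB takes 66.6% of the JUN family in si-FTO, the share that JUN held in si-NC, and MYC takes 98.7% of the MYC family.

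MYC, a basic helix-loop-helix factor that drives growth and ribosome synthesis, was the third member that was higher. It stood at 20.7 TPM in si-NC against 63.2 TPM in si-FTO, 3.05-fold higher, with a log2 ratio of 1.57 and a scaled ratio of 1.77, and 6.69% of all genes had a higher ratio. Its relatives MYCL and MYCN, the second named after its values were seen, were lower: MYCL stood at 10.8 TPM and 0.818 TPM, and MYCN at 1.59 TPM and listed at 0. MYC therefore held 62.4% of the summed TPM of the 3 MYC genes in si-NC and 98.7% in si-FTO.

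The genes around MYC were read from a list of its network and a list of its targets. The network list held MYCN and MYCL, MAX, the partner that MYC needs to bind DNA, and the MXD, MLX and related factors that compete for MAX or resemble it. Of its 12 genes, 12 were compared, 0 were higher and 3 were lower, which is 0% and 25% beside 11.4% and 17.0% of all genes. The lower ones were MYCL and MYCN, given above, and MLXIPL. The network's median log2 ratio was −0.16. After median-ratio scaling it was 0.05, and 1 gene was higher and 3 were lower. MAX stood at 75.1 TPM and 51.0 TPM, and MLX at 65.6 TPM and 95.3 TPM, neither past the fold. Neither of these thus differed as MYC did. Of 20 genes known as MYC targets, 19 were found and compared, 1 was higher, 2 were lower, and the median was −0.33, or −0.12 after the same scaling. The higher one was TFRC, the transferrin receptor, at 139 TPM and 534 TPM. It was the only gene of this list that was past the fold on the side of MYC. CCND2, the cyclin D2 gene, stood at 28.9 TPM and was listed at 0 in si-FTO. ENO1, a glycolytic enzyme and the most abundant of the list, stood at 2905 TPM and 3619 TPM. In all, 16 of the 19 target genes, or 84.2%, were not past the fold, beside 71.5% of all genes compared.

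**Figure D3:**
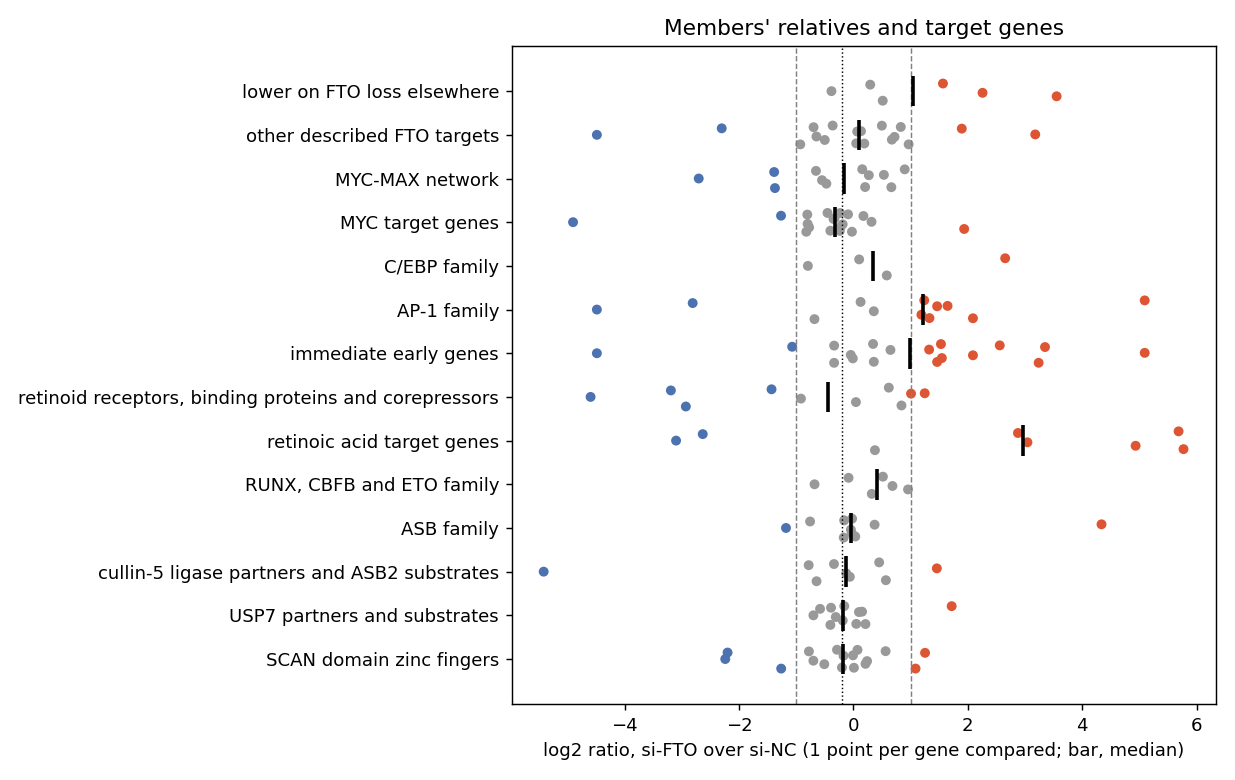
Log2 ratio of si-FTO over si-NC for each gene compared in the lists of relatives, partners and target genes, 1 point per gene, with a bar at each list's median, dashed lines at the fold and a dotted line at the median of all genes, −0.20. The retinoic acid target genes (median 2.96) and the AP-1 family (1.21) lie highest. The 6 members described as lower on FTO loss elsewhere (1.04) and the immediate early genes (0.99) follow. The MYC target genes lie at −0.33.

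RARA encodes the retinoic acid receptor alpha, a nuclear receptor that binds DNA as a pair with an RXR protein. It stood at 23.4 TPM in si-NC against 28.6 TPM in si-FTO, or a log2 ratio of 0.28 and a scaled ratio of 0.48, not past the fold. Its share of the 3 retinoic acid receptors was 41.3% in si-NC against 33.6% in si-FTO, so that the receptor itself differed little between the groups.

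The partners of RARA and the genes known to answer to retinoic acid were read beside the receptor. Of 11 other receptors, binding proteins and corepressors, 10 were compared, 2 were higher and 4 were lower, which is 20% and 40% beside 11.4% and 17.0% of all genes, with a median log2 ratio of −0.44. After median-ratio scaling 3 were higher and the median was −0.23. CRABP2, which delivers retinoic acid to its receptors, stood at 225 TPM and 23.8 TPM; it had the highest level of these genes in si-NC and was lower in si-FTO. Of 10 genes that retinoic acid is known to induce, 8 were compared, 5 were higher and 2 were lower, which is 62.5% and 25% beside the same shares of all genes, with a median of 2.96. With no minimum level that median was 1.63, and with a pseudocount of 0.1 TPM it was 4.18. STRA6, a retinol importer, stood at 0.746 TPM and 94.3 TPM. TGM2, a transglutaminase, stood at 4.43 TPM and 165 TPM. Both began at low levels in si-NC. The target list thus held genes past the fold in both directions, while RARA itself was not past it.

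MZF1, a zinc finger factor of the SCAN family first described in myeloid cells, stood at 25.8 TPM in si-NC against 37.3 TPM in si-FTO. That is a log2 ratio of 0.51 and a scaled ratio of 0.72, and 20.7% of all genes had a higher ratio. Of 20 other SCAN genes, 17 were compared, 2 were higher and 3 were lower, which is 11.8% and 17.6% beside 11.4% and 17.0% of all genes, and the median was −0.17, or 0.02 after median-ratio scaling. ZSCAN16 stood at 3.48 TPM and 9.68 TPM, ZSCAN30 at 22.8 TPM and 4.05 TPM, and SCAND1, the most abundant, at 56.3 TPM and 83.6 TPM. These shares were thus close to those of all genes.

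RUNX1T1, also called ETO, is a corepressor known from its fusion with RUNX1 in acute myeloid leukaemia and as an m6A-dependent splicing target in fat cell precursors. It stood at 2.997 TPM in si-NC and was listed at 0 in si-FTO, so no fold is given, and the size of its log2 ratio depends on the amount added to both values. Of the 13320 genes with at least the si-NC level of RUNX1T1 in si-NC, 469 (3.52%) had a 0 in the depleted group, and 140 genes with that level there had a 0 in the control group. The RUNX factors, their partner CBFB and the related genes CBFA2T2 and CBFA2T3 made up a list of 6, all compared. Of these, 0 were higher and 0 were lower, beside 11.4% and 17.0% of all genes, with a median log2 ratio of 0.42. After median-ratio scaling 1 was higher, RUNX1, and the median was 0.59. CBFB, the most abundant, stood at 38.9 TPM and 36.6 TPM.

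The last members act on ubiquitin. USP7, a protease that removes ubiquitin from MDM2, p53 and other proteins, stood at 91.3 TPM in si-NC against 69.8 TPM in si-FTO. Its log2 ratio was −0.38 and its scaled ratio −0.17, close to the middle of all genes: 59.3% had a higher ratio. Of 13 partners and substrates, 12 were compared, 1 was higher and 0 were lower, with a median of −0.17, or 0.04 after median-ratio scaling. DNMT1, the maintenance DNA methyltransferase and the most abundant of the list, stood at 166 TPM and 102 TPM. In all, 11 of the 12 were not past the fold, which is 91.7% beside 71.5% of all genes compared.

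ASB2, a substrate receptor of cullin-5 ubiquitin ligases that targets filamins in blood and muscle cells, stood at 0.117 TPM in si-NC and was listed at 0 in si-FTO. It was under the minimum in both groups, and no ratio is given. Of 17 other ASB genes, 10 were compared, 1 was higher and 1 was lower, with a median of −0.04. That is 10% each, beside 11.4% higher and 17.0% lower of all genes. After median-ratio scaling the median was 0.11, and 0 were lower, since ASB6 was then at −0.97. ASB9 stood at 0.0224 TPM and 19.7 TPM, ASB6 at 57.8 TPM and 25.0 TPM, and ASB8 at 24.9 TPM and 32.5 TPM. Of 9 cullin-5 partners and ASB2 substrates, all were compared, 1 was higher and 1 was lower, which is 11.1% each beside the same shares of all genes. Their median was −0.13, or 0.09 after the same scaling. The lower one was FLNC, a filamin, at 42.1 TPM and 0.0105 TPM. FLNA, the most abundant and also a filamin, stood at 333 TPM and 494 TPM.

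The members were also grouped by what FTO loss is described to do to them in other cells. Of the 6 described as lower, MYC, CEBPA, CEBPB, JUNB, MZF1 and USP7, 3 were higher here and 0 were lower, with a median log2 ratio of 1.04. That is 50% and 0%, beside 11.4% and 17.0% of all genes. Of the 2 described as higher, ASB2 and RARA, 1 was compared and it was not past the fold. RUNX1T1, the only member that was lower here, was placed in neither of these groups. Of 21 other genes described as FTO targets, 18 were compared, 2 were higher and 2 were lower, which is 11.1% each, beside 11.4% and 17.0% of all genes, with a median of 0.10. After median-ratio scaling 4 were higher and 2 were lower, and the median was 0.31. CXCR4, a chemokine receptor, stood at 8.13 TPM and 81.7 TPM, and JUN had the lowest log2 ratio of this list. LDHB and PKM, enzymes of glycolysis and lactate metabolism and the most abundant of the list, stood at 1600 and 1675 TPM for LDHB and at 1434 and 2546 TPM for PKM.

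**Figure D4:**
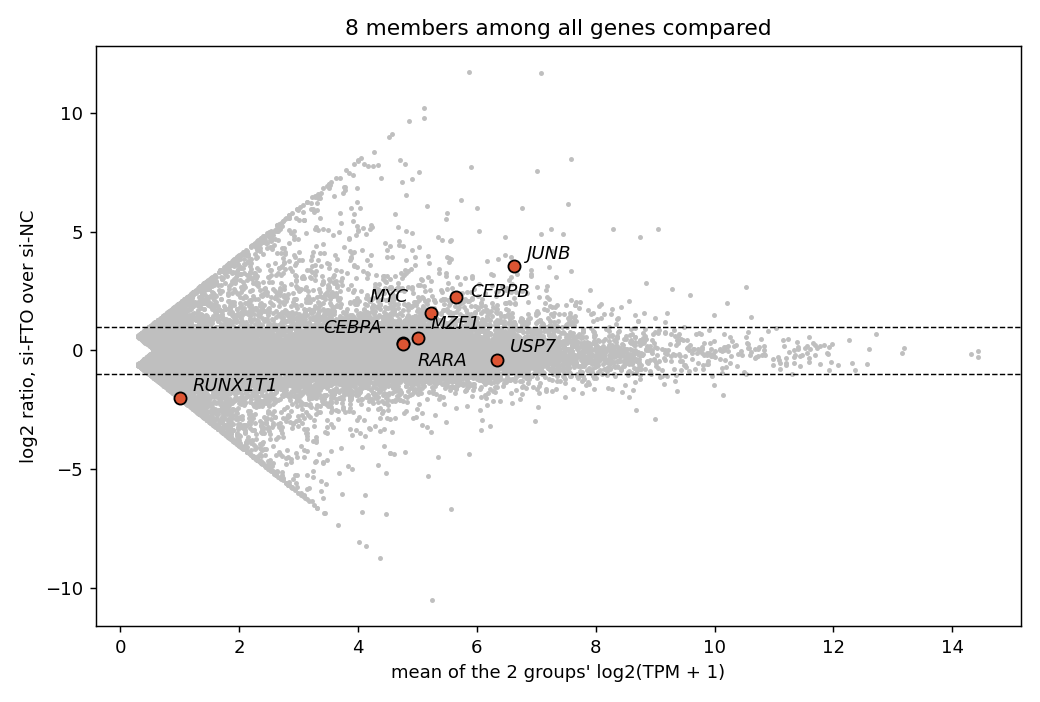
Log2 ratio of si-FTO over si-NC against the mean of the groups' log2(TPM + 1) for the 20493 genes compared (grey), with the 8 members compared marked and dashed lines at the fold. JUNB (3.55), CEBPB (2.26) and MYC (1.57) lie above the upper line, and RUNX1T1 lies on the lower edge of the cloud, where genes listed at 0 in si-FTO fall.

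The members' transcripts were then read for the m6A motif. In 1 transcript per gene, the one with the longest coding sequence, which sets these counts, GGACT was present in all 9 members, as in 90.9% of the 14065 protein-coding genes compared. Its density was above the median of 0.946 per 1000 bases in 7 of the 9. CEBPB had the highest, 2.18 per 1000 bases, with 93.0% of genes lower. JUNB had 0.546, with 23.7% of genes lower, and USP7 had 0.186, with 9.57% lower. The 2 members with the largest ratios thus stood on opposite sides of the median density. Over all genes, the median log2 ratio was −0.22 in the genes with the lowest densities, up to 0.570 per 1000 bases, and −0.20 in an equal number with the highest, from 1.41. Of the former 10.1% were higher and 18.3% were lower, and of the latter 14.1% and 18.9%.

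The place of the motif also differed between members. In MZF1, RUNX1T1, ASB2 and USP7 it lay in the coding sequence and not in the 3′ UTR, with 4, 4, 3 and 1 copies. In JUNB, CEBPA and RARA it lay in the 3′ UTR and not in the coding sequence, with 1, 3 and 2 copies. RARA had the highest density there, 3.51 per 1000 bases of a 3′ UTR of 569 bases, with 95.2% of genes lower. These places and densities are those of the 1 transcript read per gene, and its other transcripts were not searched. CEBPB had 4 copies, with 2 in the coding sequence, 1 in the 3′ UTR and the other outside both. MYC had 3 copies in the coding sequence and 2 in the 3′ UTR.

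**Figure D5:**
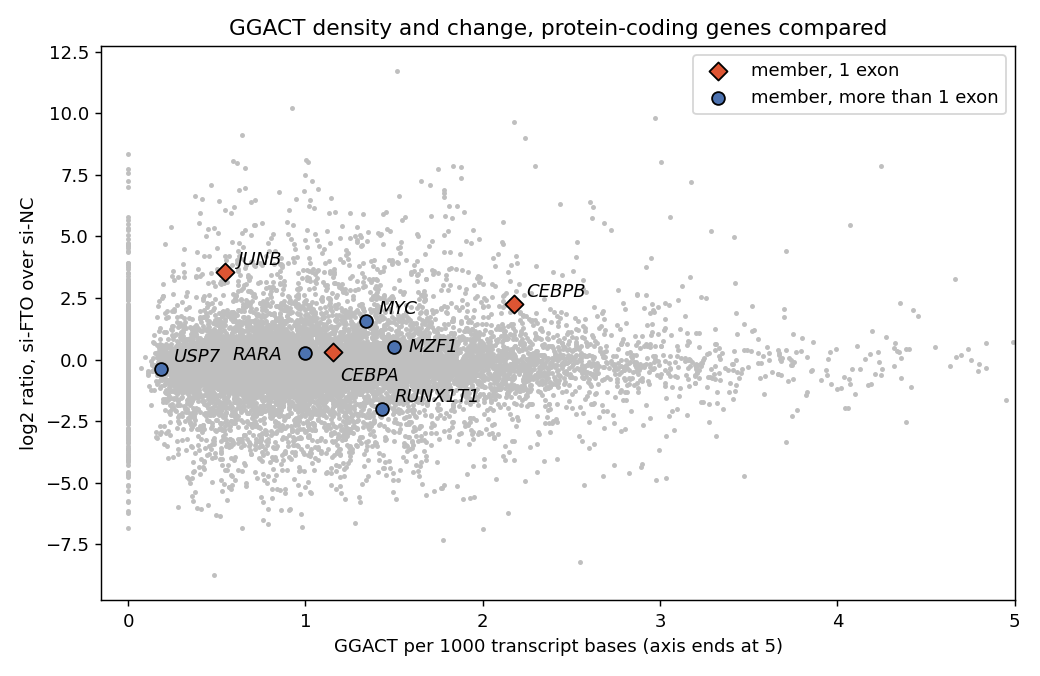
Log2 ratio of si-FTO over si-NC against the number of GGACT per 1000 transcript bases for the protein-coding genes compared (grey), with the members marked as single-exon genes (diamonds) or genes with more than 1 exon (circles). JUNB (0.546 per 1000 bases) and CEBPB (2.18) both lie above a log2 ratio of 2 at far apart densities.

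The copy nearest the stop codon is shown for the members other than MYC and RUNX1T1, with 10 bases on each side, since the mark is known to be dense around stop codons, although not every copy shown lies near one. The sequences run 5′ to 3′ on the transcript's strand in the GRCh37 genome, each within 1 exon, and capitals mark GGACT. The copy of JUNB lies in the 3′ UTR at chr19:12903743-12903767 on the plus strand, with its A 128 bases from the first base of the stop codon. That of CEBPA lies in the 3′ UTR at chr19:33792128-33792152 on the minus strand, 106 bases away, and that of CEBPB in the 3′ UTR at chr20:48808965-48808989 on the plus strand, 371 bases away. The copy of RARA lies in the 3′ UTR, in exon 8 of 8, at chr17:38512653-38512677 on the plus strand, 189 bases away. The copy of MZF1 lies in the coding part of exon 6 of 6 at chr19:59073494-59073518 on the minus strand, 65 bases before that base. The copy of ASB2 lies in the coding part of exon 9 of 10 at chr14:94404058-94404082 on the minus strand, 161 bases before it, and that of USP7 in the coding exon 21 of 31 at chr16:8994441-8994465 on the minus strand, 1064 bases before it. Whether any of these adenosines carries the mark in AGS cells was not tested.
JUNB: aaaccacactGGACTccggccctcc
CEBPA: gtgcgagccaGGACTaggagattcc
CEBPB: tgtgtacacgGGACTgacgcaaccc
RARA: ggccctcagtGGACTgcctgctccc
MZF1: tcgcctgccaGGACTgtggccgccg
ASB2: acagctttgaGGACTgggccgtcat
USP7: agagaattcaGGACTatgacgtgtc

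Several members overlap other annotated genes, and whether strand was used in the counting is not given in the sources used here, so reads of such pairs may not be told apart. HOOK2, a protein-coding gene on the other strand that overlaps JUNB, stood at 14.98 TPM and 24.0 TPM. CEBPB-AS1, opposite CEBPB, stood at 0.594 TPM and 0.771 TPM. Neither of these was past the fold. CASC11, opposite MYC, stood at 0.0247 TPM and 1.05 TPM, and RARA-AS1 at 1.08 TPM and 4.26 TPM, both past the fold. CENPBD2P, a pseudogene on the other strand that overlaps MZF1, stood at 30.4 TPM and 28.2 TPM and was not past the fold. CEBPA-DT, which starts near CEBPA on the other strand, was lower, at 5.62 TPM and 0.939 TPM.

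By the pair of levels alone, the protein-coding gene most like each member was read as the smallest distance over the 2 values of log2(TPM + 1). For JUNB it was MT2A, a metallothionein, at a distance of 0.24, and 0 genes lay within 0.1. For CEBPB it was TEAD1, a Hippo pathway factor, at 0.02, with 3 genes within 0.1. For MYC it was CDC42EP4 at 0.04, with 4 genes within 0.1. For CEBPA the nearest was RARA at 0.02, with 39 genes within 0.1, so the levels of JUNB were shared by few genes and those of CEBPA by many. The nearest genes of RARA, MZF1, USP7 and RUNX1T1 were SEC24A, ETHE1, ABCE1 and ITGA8.

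Markers of other cell types ranged from absent to abundant. Of 8 haematopoietic markers, 1 was compared and it was not past the fold; the sum was 1.01 TPM in si-NC against 0.669 TPM in si-FTO, the most abundant was CD14, and PTPRC and MPO were listed at 0 in both. Of 7 adipocyte markers 3 were compared and 1 was higher. LPL, a lipase, stood at 2.08 TPM and 113 TPM and PPARG at 41.8 TPM and 44.7 TPM, with a sum of 44.8 TPM and 158 TPM, while ADIPOQ and FABP4 were listed at 0 in both. The adipocyte list thus held both abundant genes and genes with no value above 0. Of 6 melanocyte markers 2 were compared and 1 was higher, MITF, at 3.53 TPM and 31.2 TPM, with a sum of 6.75 TPM and 36.1 TPM, and TYR was listed at 0 in both. Of 7 fibroblast markers 5 were compared, 2 were higher and 1 was lower, with a sum of 16.005 TPM and 45.6 TPM, most of it COL1A1 at 10.3 TPM and 36.4 TPM. The other higher one was PDGFRB, at 0.370 TPM and 5.34 TPM, and the lower one was COL3A1, at 2.18 TPM and 0.361 TPM. Of 4 endothelial markers found, 1 was compared and was higher, CDH5, at 0.00827 TPM and 40.9 TPM, with a sum of 0.420 TPM and 41.0 TPM. The shares higher were 33.3% for adipocyte, 50% for melanocyte, 40% for fibroblast and 100% for endothelial markers, beside 11.4% of all genes compared. The shares lower were 0%, 0%, 20% and 0% in the same order, beside 17.0%. Each of these lists rests on 1 to 5 compared genes. The part of these markers in the members' levels was not tested.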

How the data were processed

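Total RNA of AGS cells was sequenced as 3 si-NC and 3 si-FTO libraries with a stranded kit. TPM values were deposited by the authors, with 1 mean for each group, and the submitters' notes name HISAT2 whereas the paper's methods name Bowtie and RSEM, both with hg19. Their table also holds the authors' log2 fold change with its p-value and q-value, which were not used, and a table of changed genes was not used. A deposited value of 0.0001 TPM was read as 0. Depth is unknown. Symbols matched 55726 of 58174 identifiers; BOP1 and PECAM1 were not found and were not analysed here. The ratio was log2((si-FTO + 1)/(si-NC + 1)), with at least 0.5 TPM in at least 1 group and no test; the arithmetic was tested on simulated data. Sequences and gene models came from GRCh37 with GENCODE v44 lifted to it, and promoters from RefSeq.

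Groups follow the titles. The members and gene lists were chosen with earlier results of these data known, and the promoter motifs, the family shares and the comparison of single-exon genes after values were seen. Named genes are the members, FTO and ALKBH5; of each list the gene past the fold with the largest ratio in each direction and at least 1 TPM, and the most abundant gene in either group; genes that overlap a member or start within 5000 bases; and the gene nearest to each member by level. Some genes that this covers are not reported here, overlapping genes at low levels were left out, and further genes in the text were picked after their values were known. Alternatives were a pseudocount of 0.1 TPM, no minimum, a minimum of 5 TPM, median-ratio scaling, quantile normalization, 0.0001 kept with no pseudocount, and a fold of 0.5 or 2 on the log2 scale. Python 3.11.15, numpy 2.4.6, pandas 2.3.3 and matplotlib 3.10.9 were used.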

Additional observations from a re-analysis of the deposited data

How the results depend on the processing

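Each member's log2 ratio was computed under up to 6 alternatives, and 0 of 47 such values changed sign or crossed the fold. A minimum level decides only whether a gene is compared. The values with no minimum and with a minimum of 5 TPM could therefore not differ from the main ones. JUNB ranged from 3.55 to 3.76, CEBPB from 2.26 to 2.46, MYC from 1.57 to 1.77 and USP7 from −0.39 to −0.17. RUNX1T1, listed at 0 in si-FTO, ranged from −14.87 with nothing added to −1.84 with quantile normalization, and was −4.95 with 0.1 TPM added. The count of members lower in si-FTO went from 1 to 0 with a minimum of 5 TPM, which RUNX1T1 did not reach, and to 0 with a fold of 2. The count of members higher was 3, but 4 with a fold of 0.5 and 2 with a fold of 2. Over all genes, the higher count of 2340 became 4326 with a fold of 0.5 and 976 with a fold of 2. The lower count of 3492 became 7160 and 1241 with these, 2254 with a minimum of 5 TPM and 5348 with 0.0001 kept and no pseudocount. Higher genes made up 40.1% of those past the fold, and 49.1% after median-ratio scaling.

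Of 108 medians of gene lists under the alternatives, 6 crossed the fold, 5 of them the immediate early genes at their 0.99, and 7 changed sign or became 0, all of lists whose median was under 0.5 in size. The median of the retinoic acid target genes, 2.96, was 1.63 with no minimum and 4.18 with a pseudocount of 0.1 TPM. No paired analysis was possible because the table holds 1 mean per group, although the labels share replicate numbers. Leaving out libraries and the replicate block were not run for the same reason. With no values per library and no depth, the precision of each mean is unknown.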

Other observations

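The gene structure and the promoter element that JUNB, CEBPA and CEBPB share were also counted over all genes, after the members' values were seen. Of 354 single-exon protein-coding genes compared, 48 were higher in si-FTO, which is 13.6%, and 81 were lower, which is 22.9%, beside 12.1% and 19.1% of all protein-coding genes compared. Of 1095 genes compared with TATAAA in a RefSeq promoter, 214 were higher, which is 19.5%, and 232 were lower, which is 21.2%, beside 11.7% and 18.3% of the 12420 genes compared with a promoter. These are counts without a test.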
